A study of Rattus norvegicus with 8 samples.

Results

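The comparison described here sets 6 arrays of colitic rat colon against 2 arrays of healthy colon, whatever oil the colitic rats had eaten. Genes were chosen as members where all 6 colitis arrays lay on the same side of both healthy arrays. Of 18171 genes tested, 1880 (10.3%) met this rule, 925 with colitis above healthy and 955 with colitis below, and 1431 of them carry a gene symbol. Every array of the series takes part. RNA came from the colon of female Wistar rats aged 14 weeks after 8 weeks on their diet. The healthy rats ate sunflower oil and received no dextran sulfate sodium (DSS). In the 3 colitis groups 5% DSS was given for 7 days, and the oil was sunflower oil (called the n-6 group), alpha-linolenic acid (ALA) or fish oil. DSS is a sulfated polysaccharide that strips and injures the colon epithelium. Only the n-6 group shares its oil with the healthy group, so the difference between colitis and healthy over all 6 arrays carries the change of oil in 4 of them.

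Each group had 2 arrays, and each array carried RNA pooled from 6 rats. The healthy group held 6 rats, so both healthy arrays carry the same animals, while each colitis group held 10. A line of the labels calls the tissue of every array that of a healthy rat, which the titles and the treatment given for each array contradict for colitis. Whether the arrays of a colitis group repeat 1 pool or hold separate pools is not stated in the labels. All p-values therefore measure the spread between arrays, which may be technical. The 8 arrays were Agilent 1-colour arrays on 1 slide, row 1 holding the healthy and ALA arrays and row 2 the others. A level here is the log2 signal of a probe minus the log2 75th percentile of all probes on that array. Fish oil replicate 1 was the dimmest array, with a 75th percentile signal of 175 against 393 to 693 on the others, and 54.0% of its probes well above background against 59.8% to 70.1%. Across genes, which are not replicates, n-6 replicate 1 had the lowest correlation with the healthy arrays (r = 0.925 and 0.915) and fish oil replicate 2 the highest (r = 0.976 and 0.973). Of 26190 genes on the array 18171 were measured, among them 26 of 27 listed colonocyte genes and 13 of 14 smooth muscle genes. The mean level on an array was 3.84 to 4.62 for the smooth muscle list and 0.20 to 2.10 for the colonocyte list. Over all genes tested the mean was -0.95 to -0.62, so the tissue held muscle as well as mucosa.

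As background, DSS colitis begins with loss of the epithelial barrier, after which bacteria reach the tissue and neutrophils and macrophages are drawn in by chemokines. Healthy colonocytes live largely by oxidising the fatty acid butyrate, and their detoxifying enzymes are kept active through the aryl hydrocarbon receptor. The crypt base is kept by Wnt signals, and goblet cells renew a mucus layer that trefoil peptides help to repair.

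No gene passed the test for colitis against healthy. Benjamini-Hochberg adjusted p-values of limma's moderated test fell under 0.05 for 0 of 18171 genes (0%), and the smallest was 0.106, for Cyp1a1. Healthy arrays share slide columns only with n-6 arrays and a slide row only with ALA arrays. A block by column therefore contrasts n-6 alone with healthy, and a block by row ALA alone. With the slide column pair as a block limma called 14 genes, 11 higher and 3 lower. The contrast of n-6 with healthy in the fit of 4 group means called 7. With the slide row as a block limma called 0 (780 genes at an unadjusted p under 0.05). In the main test 1457 genes (8.02%) had a p under 0.05 before adjustment, of which 723 (3.98%) were higher in colitis and 734 (4.04%) lower. All 6 colitis arrays lay above both healthy arrays for 5.09% of genes and below them for 5.26%, which are the shares to read the counts below against. The limma difference uses the same arrays as the rule, so it describes the members and gives no independent support. Members above had a median difference of 0.68 on the log2 scale and members below one of -0.77, against 0.04 over all genes. The gap between the nearest colitis array and the nearest healthy array exceeded 1 log2 unit for 42 genes above and 20 below. Just inside the rule lay Coq9, whose nearest arrays both read 3.72, and just outside it Mrps25. With each array centred on its median in place of its 75th percentile, the counts were 1007 above and 595 below. Fewer arrays are easier to clear: without healthy replicate 1 the counts were 3382 above and 2443 below, without healthy replicate 2 they were 1743 and 2255, and without fish oil replicate 2 they were 1418 and 1351.

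**Figure D1:**
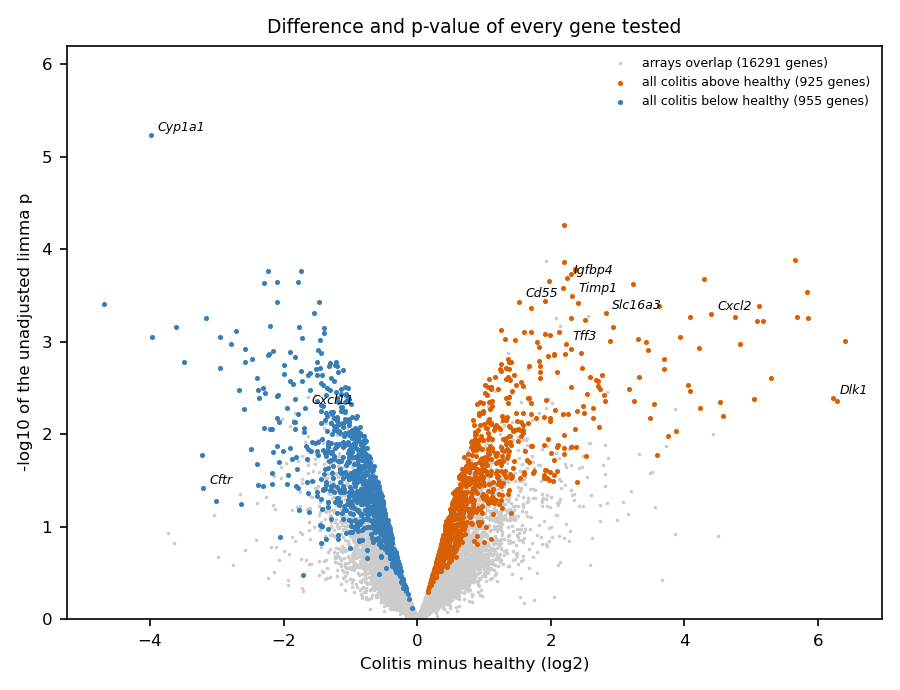
Each point is 1 of the 18171 genes tested, with the log2 difference between colitis and healthy on the x axis and -log10 of the unadjusted limma p on the y axis. The 925 genes with all colitis arrays above healthy are orange, the 955 below are blue, and Cyp1a1 at a difference of -3.98 stands highest.

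Among the named genes with the widest gap above healthy, several unrelated genes shared both an array pattern and a stretch of probe sequence. Dlk1, a membrane protein of precursor cells, read -5.40 and 0.90 on the healthy arrays and between 2.92 and 5.12 in colitis, with a median of 3.83. Pcsk1, a prohormone-cleaving protease of endocrine cells, read -3.47 and 1.18 against 3.19 to 5.34 (median 3.96). Rfx5, a transcription factor of MHC class II genes, read -3.37 and 1.62 against 3.38 to 5.37 (median 3.97). Uncx, a homeobox factor, read -2.51 and 2.38 against 3.85 to 6.03. In all 4 genes healthy replicate 1 lay far below healthy replicate 2, and fish oil replicate 1, the dimmest array, was the highest. Their log2 differences were 6.23, 5.29, 5.04 and 4.58, and the SE was 1.49, 1.15, 1.21 and 1.19, with limma adjusted p-values of 0.37, 0.329, 0.37 and 0.431.

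The stretches of the 60-base probes that carry the shared letters are shown because several of the largest differences rest on such probes, with CCCTAACC or CCTAACCC, or both joined, in capitals. The first 4 belong to the genes just named, and Bcas1 and Ftx follow because a further probe without the letters was measured for each.
Dlk1: acagctgtacCCCTAACCCatgcga
Pcsk1: cctctaagaaCCCTAACCaattcatggg
Rfx5: cttcaaagttCCCTAACCCatgagcataa
Uncx: accccgtatcCCCTAACCCacaaaaaccc
Bcas1: aaaaaccctcCCCTAACCCagttaataaa
Ftx: attcaggcatCCTAACCCggagag
On the rn4 build these probes lie far apart: Dlk1 at chr6:134028313-134028372, Pcsk1 at chr2:1969912-1969971, Rfx5 at chr2:189860883-189860942, Uncx at chr12:15576562-15576621, Bcas1 at chr3:161395067-161395126 and Ftx at chrX:91518877-91518936. Both 8-letter runs were found after the values were seen, as the runs held by at least 7 of the 42 genes with a gap over 1, so their counts are a description. Of 30367 probes, 20 hold either run, and 18 of these (90.0%) had all colitis arrays above healthy against 1204 of all probes (3.96%). None of the 20 lay below. Of 15 probes with the reverse complement, 0 lay above and 2 below. The median level of the 20 probes was -2.98 and -0.02 on the healthy arrays, 3.39 and 2.55 on the ALA arrays, 2.87 and 0.46 on the fish oil arrays, and 2.57 and 3.90 on the n-6 arrays. The median over all probes stayed between -3.35 and -3.00 on every array.

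Further probes of some of these genes, without the run, were on the array. Bcas1, a gene of myelinating and epithelial cells, read 1.26 and 2.87 in healthy colon and 4.01 to 5.93 in colitis on the probe with the run. Its other probe read 3.37 and 2.42 in healthy colon and 2.44 to 4.66 in colitis, so the arrays overlapped. Ftx, a noncoding RNA gene near the X inactivation centre, read -4.64 and -5.81 against -3.31 to 2.94 on the probe with the run and -4.71 and -7.38 against -6.80 to -3.48 on the other. Of 6 such further probes over 5 genes, 0 had all colitis arrays above healthy. The Ftx probe was well above background on only 4 of 8 arrays and the Tiprl probe on 1, which leaves 4 probes, of Bcas1, Plagl1 and RT1-T18, measured above background on all 8. The run is held by 17 of the 925 members above, and without these probes 908 genes lay above and 955 below. The part of the run in the signal was not tested. Dydc1, Or2b4, Ttc36, Or2b11, Atxn2l and Dkkl1, also among the widest gaps, hold neither run. Their arrays were nevertheless ordered much like the medians of the probes with the run. In each, fish oil replicate 2 was the lowest colitis array and n-6 replicate 2 lay above n-6 replicate 1. Ttc36 read -2.76 and -0.53 (healthy), 3.86 and 3.24 (ALA), 4.24 and 1.44 (fish oil) and 3.34 and 4.54 (n-6). The array pattern was thus not confined to probes with the run, and its cause was not tested. Atxn2l had 2 further probes, with differences of -0.31 and 0.19 against 3.30 on the probe used.

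**Figure D2:**
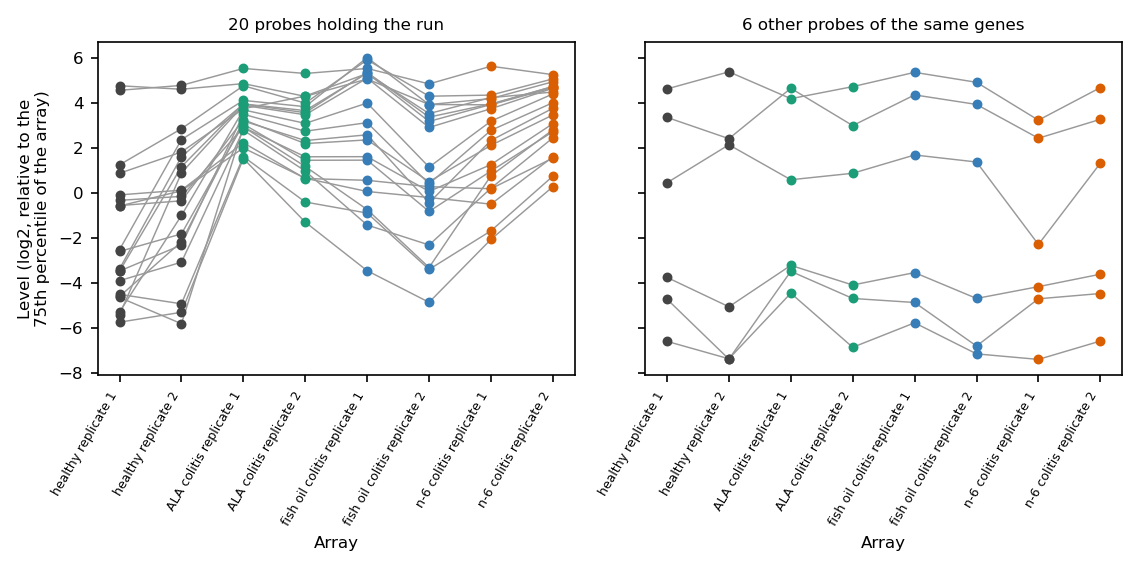
Level on each array (log2, relative to the 75th percentile of the array) for the 20 probes that hold either run, left, and for 6 further probes of the same genes without it, right. Points are arrays coloured by group and lines join the values of 1 probe; on the left the healthy arrays lie lowest for 18 of 20 probes, on the right for 0 of 6.

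The other members above healthy included chemokines that attract neutrophils. The list holds chemokines and their receptors, and also the platelet chemokine Pf4. Of its 13 genes, 6 were measured, and 4, Pf4 among them, lay above healthy on every colitis array and 0 below. That is 66.7% against 5.09% of all genes, and the list's median difference was 2.78 on the log2 scale. Of the 6, 1 was well above background on neither healthy array and was kept only for its signal in colitis. Cxcl2, a ligand of the neutrophil receptor Cxcr2, read -3.37 and -3.34 in healthy colon. In colitis it read 2.82 and 0.63 (ALA), -0.32 and -1.66 (fish oil) and 3.33 and 1.46 (n-6). Healthy arrays agreed closely while colitis arrays spread widely, with both fish oil arrays lowest. The difference was 4.40 (SE 0.726, limma adjusted p = 0.252). Cxcl3, a close relative, read -2.51 and -3.46 in healthy colon and from -1.91 to 2.67 in colitis (median 1.56). Cxcl1 read -4.70 and -4.54 against -3.95 to 2.58 (median -1.65), with fish oil replicate 2 nearest to healthy. Pf4, the platelet chemokine, read -1.19 and -1.41 against -1.06 to 2.42.

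The Cxcl1 and Cxcl2 genes lie side by side, and a form of the NF-kB site (GGG and TTTCC with 2 bases of any kind between) was searched on both strands in the 250 bases before each start. It occurs 2 times in each. The stretches are shown because both genes lay above healthy on every colitis array; capitals mark the matches, and the sequences are those of RefSeq on the GRCr8 build, minus strand.
Cxcl1 (chr14:17479371-17479448): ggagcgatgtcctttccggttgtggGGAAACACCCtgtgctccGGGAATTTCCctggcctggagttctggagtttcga
Cxcl2 (chr14:17467275-17467354): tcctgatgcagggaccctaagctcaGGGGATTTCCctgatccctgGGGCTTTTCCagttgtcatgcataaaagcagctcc
The site occurs in 351 of 27457 promoters (1.28%) and in 162 of 10795 promoters of tested genes (1.5%). Among the 506 members above with a promoter sequence 15 hold it (2.96%), and among 658 members below 8 do (1.22%). A match is a description of the sequence and shows no binding.

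Some markers of neutrophils and of macrophages also lay above healthy. Of 17 measured neutrophil genes 5 lay above and 0 below, with a median difference of 1.11, and 2 of the 17 had a lower mean in colitis. Of the 17, 4 were well above background on neither healthy array and were kept only for their signal in colitis. This tilts the median upward. S100a9, a calcium-binding protein abundant in neutrophils, read -2.20 and -3.33 in healthy colon and between -1.63 and 0.67 in colitis. Cybb, the catalytic subunit of the phagocyte oxidase, read -4.45 and -4.53 against -3.73 to -2.72, and both healthy arrays lay below every colitis array. Csf3r, the receptor of the neutrophil growth factor G-CSF, read -4.90 and -5.55 against -4.71 to -3.40. Itgam, an integrin of neutrophils and macrophages, differed by 0.82 (SE 0.283, limma adjusted p = 0.544). Of 18 measured macrophage genes 5 lay above and 0 below (median 0.81), and 1 of the 18 had a lower mean. Only 1 of the 18 was kept for its signal in colitis alone. Cd68, a lysosomal protein of macrophages, read -1.27 and -0.99 against -0.86 to 1.12, with both fish oil arrays nearest to healthy. The complement subunit C1qb, made by macrophages, read 3.46 and 3.18 against 3.98 to 4.69, and C1qc -1.32 and -0.79 against -0.26 to 0.38. Fcgr1a, a high-affinity antibody receptor, read 0.65 and 0.70 against 1.02 to 2.53, and a further Fcgr1a probe (difference 0.80) overlapped. The summed macrophage list lay at 5.54 and 5.56 on the healthy arrays and at 6.04 to 6.66 on the colitis arrays. The summed neutrophil list overlapped, at 6.41 to 6.86 in healthy colon and 6.63 to 7.84 in colitis. In pooled tissue, more cells of a type and more RNA per cell cannot be told apart.

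Complement genes were among the lists with the largest share above healthy, with 6 of 14 measured members above and 0 below (42.9%; median 0.72). Cd55, which protects host cells from complement, read 2.02 and 1.68 in healthy colon and 3.17 and 3.37 (ALA), 2.88 and 3.10 (fish oil) and 3.87 and 3.87 (n-6) in colitis. Both n-6 arrays were highest and every colitis array was clear of healthy, with a difference of 1.53 (SE 0.239, limma adjusted p = 0.252). C5ar1, the receptor of the complement fragment C5a, read -2.05 and -2.36 against -1.50 to 0.44, highest on both n-6 arrays. C1s and Serping1, a classical pathway protease and its inhibitor, complete the 6 with C1qb and C1qc. Of the cytokine families, Il1rn, the interleukin-1 receptor antagonist, was the only interleukin-1 list member above, at 0.72 and 0.86 against 1.48 to 4.09. Osmr, the oncostatin M receptor, was the only one of the interleukin-6 list, at -5.38 and -5.30 against -4.73 to -2.95. CC chemokines had 0 of 17 measured members on either side, although their median difference was 1.15.

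Of 20 measured matrix proteases and inhibitors 5 lay above and 0 below (25%, median 0.99), and 2 of the 20 were kept only for their signal in colitis. Of 21 collagen and matrix genes 0 lay on either side (median 0.56). The protease list differed by a median of 1.02 in ALA, 0.02 in fish oil and 1.51 in n-6 colitis, and its mean level on fish oil replicate 2 (-2.14) lay below both healthy arrays (-1.88 and -1.81). Timp1, an inhibitor of matrix metalloproteases, read 2.36 and 2.03 in healthy colon and 4.21 and 3.62 (ALA), 4.24 and 3.25 (fish oil) and 6.13 and 5.65 (n-6) in colitis. Its difference was 2.32 (SE 0.356, limma adjusted p = 0.252), and both n-6 arrays were highest. Adamts1, a protease that cuts proteoglycans, read 0.06 and 0.25 against 1.35 to 4.96. Mmp2, a gelatinase, read 1.13 and 1.30 against 1.37 to 3.27, with fish oil replicate 2 almost at the healthy level, and a further Mmp2 probe (difference 0.75) overlapped healthy. Grem1, a stromal antagonist of BMP signals, read 1.53 and 0.34 against 2.49 to 5.24. Igfbp4, which binds insulin-like growth factors, read 2.32 and 2.19 against 3.73 to 5.42, a gap of 1.41 that is among the 15 widest of named genes. The summed fibroblast marker list read 5.94 to 6.35 in healthy colon, 6.14 to 6.54 in ALA and fish oil colitis and 7.08 to 7.75 in n-6 colitis, and its part in these genes was not tested. F3, the tissue factor that starts coagulation, read 0.41 and 0.24 against 0.95 to 3.89.

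Of 13 measured goblet cell and trefoil genes 3 lay above healthy and 0 below (23.1%; median 0.93), while 4 of the 13 had a lower mean in colitis. Tff3, the goblet cell trefoil peptide of mucosal repair, read 1.92 and 1.53 in healthy colon. In colitis it read 4.97 and 3.42 (ALA), 3.20 and 3.51 (fish oil) and 4.41 and 4.25 (n-6). Every colitis array thus lay at least 1.28 above the higher healthy array, and the difference was 2.23 (SE 0.417, limma adjusted p = 0.269). Of 15 antimicrobial and epithelial defence genes 2 lay above and 0 below (13.3%; median 0.56), and 3 of the 15 had a lower mean in colitis, the lowest by a difference of -2.14. Itln1, a lectin that binds microbial sugars, read -1.26 and 0.82 against 2.19 to 5.56. Retnlb, a goblet cell protein against bacteria and worms, differed widely between the healthy arrays, at -0.90 and -6.32 against -0.59 to 3.65. Muc4, a membrane mucin, read 0.99 and 1.26 against 1.79 to 3.71 (difference 1.39), but a further Muc4 probe differed by 0.58 and overlapped. Duoxa2, needed for the epithelial hydrogen peroxide source Duox2, read -0.61 and -0.62 against 0.48 to 2.23, with close healthy arrays and no diet near them.

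Some genes of the stress-response lists also lay above healthy, while many others of these lists had a lower mean in colitis. Of 17 measured NRF2 targets 4 lay above and 0 below (23.5%, median 0.42), and 5 of the 17 had a lower mean. Hmox1, which breaks down haem, read -1.68 and -1.05 in healthy colon and 1.30 and 0.47 (ALA), 0.77 and 0.76 (fish oil) and -0.18 and 0.59 (n-6) in colitis. Here n-6 replicate 1 was the array nearest to healthy, unlike most members above. Slc7a11, the cystine transporter that feeds glutathione synthesis, read -4.23 and -4.10 against -3.24 to 0.09, high on both ALA arrays and n-6 replicate 1. Tf, the plasma iron carrier transferrin, belongs to the haem and iron list, of which 3 of 17 lay above and 6 had a lower mean. It read 1.84 and 1.66 against 2.80 to 4.05. Slc16a3, a lactate exporter of glycolytic cells, read 2.19 and 1.34 against 3.69 to 5.43. Its difference of 2.83 (SE 0.464, limma adjusted p = 0.252) was far above the median of 0.48 of the 21 hypoxia and glycolysis genes. Of those 21, 2 lay above (9.52%) and 7 had a lower mean in colitis. Of 16 AP-1 and immediate early genes 3 lay above and 0 below, and 7 of the 16 had a lower mean in colitis. Fosl1, an AP-1 subunit, read -5.28 and -4.71 against -4.26 to -1.31, Egr2 differed by 1.66 and Ier2 by 0.49.

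Enzymes of cholesterol synthesis were a further group above healthy. Of 18 measured genes 7 lay above and 0 below (38.9%; median 0.80). The median difference was 0.76 in ALA, 1.07 in fish oil and 0.50 in n-6 colitis, so this list was lowest in n-6 colitis. Idi1, the isomerase that readies isoprene units, read 1.91 and 1.46 in healthy colon and 3.64 and 2.53 (ALA), 3.14 and 3.19 (fish oil) and 2.59 and 3.40 (n-6) in colitis. Its 3 diet means lay within 0.17 of each other, and the difference was 1.40 (SE 0.384, limma adjusted p = 0.45). Lss, which closes the sterol ring, read -0.70 and -1.14 against -0.16 to 0.90, and Msmo1, a sterol methyl oxidase, 4.24 and 4.03 against 4.69 to 5.63. Cyp51, the sterol demethylase, read 1.04 and 0.70 against 1.28 to 2.29. Sqle, Fdps and Mvd are the other 3.

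The pentamer CCAAT, the core of NF-Y sites, was searched on both strands of the 250 bases before the start, and 10 of 12 measured cholesterol genes with a promoter sequence hold it (83.3%). It occurs in 34.3% of all promoters and 35.2% of those of tested genes. Of members above 36.0% hold it and of members below 37.8%. The sterol element form TCACNCCAC was found in 0 of the 12 windows, and in 0.976% of all promoters. The stretches of 3 of these genes are shown because they carry the match (capitals, here as its reverse complement) close to the start, on the minus strand of GRCr8.
Idi1 (chr17:66547530-66547615): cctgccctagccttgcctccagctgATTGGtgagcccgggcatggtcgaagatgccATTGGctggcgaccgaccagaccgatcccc
Lss (chr20:12118283-12118337): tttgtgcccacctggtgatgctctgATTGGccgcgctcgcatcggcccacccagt
Mvd (chr19:67414980-67415034): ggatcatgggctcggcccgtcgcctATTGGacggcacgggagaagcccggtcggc

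**Figure D3:**
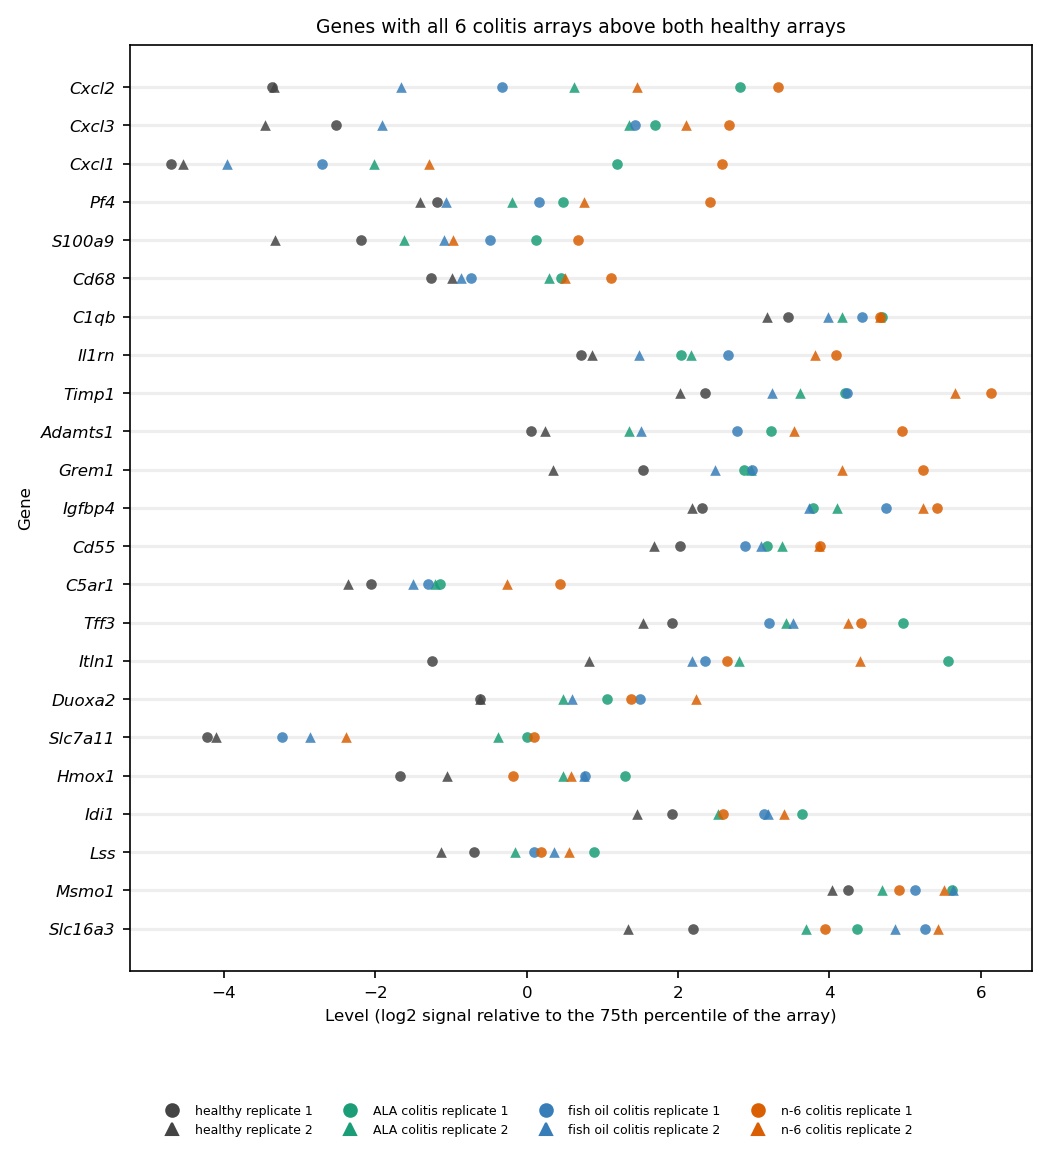
Levels on each array (x axis, log2 signal relative to the 75th percentile of the array) of 23 members above healthy, 1 gene a line. Colours give the group and shapes the replicate; the healthy arrays (grey) lie to the left of every colitis array, for Timp1 at 2.03 and 2.36 against 3.25 to 6.13.

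Below healthy, the widest gap of a named gene belonged to Cyp1a1, the enzyme that the aryl hydrocarbon receptor induces most strongly. It read -1.86 and -2.03 in healthy colon and -5.25 and -6.14 (ALA), -5.66 and -5.44 (fish oil) and -6.86 and -6.22 (n-6) in colitis. Both healthy arrays were well above background and none of the 6 colitis arrays was. It was therefore at least 12.2-fold lower in colitis, with a measured log2 difference of -3.98 (SE 0.328, limma adjusted p = 0.106). For that bound, each colitis array enters at the dimmest signal still called well above background there, or at the Cyp1a1 signal where that is brighter. Cyp2c23, an enzyme that makes epoxides of arachidonic acid, was also not well above background in colitis and at least 3.76-fold lower (difference -2.29, SE 0.334). Ahrr, the repressor that the same receptor induces, read 1.57 and 1.58 against -0.86 to 0.96, with ALA replicate 1 nearest to healthy. Of 15 measured xenobiotic genes these 3 lay below and 0 above (20% against 5.26% of all genes, median -0.67). Another 3 of the 15 had a higher mean in colitis. The summed list read 6.47 to 6.65 in healthy colon and 6.85 to 7.08 in fish oil colitis. In ALA colitis it read 5.98 to 7.09 and in n-6 colitis 5.40 to 6.60. The Cyp1a1 probe lies at chr8:61468133-61468192 of rn4.

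The core TNGCGTG of the receptor's response element occurs in 4.26% of all promoters, 6.24% of those of tested genes and 6.69% of those of members below. Ahrr holds it once in the window, shown because Ahrr is the listed xenobiotic gene of these 13 promoters that does (GRCr8, plus strand, match in capitals).
Ahrr (chr1:30822135-30822191): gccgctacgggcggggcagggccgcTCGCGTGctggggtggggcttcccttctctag

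Genes of fatty acid oxidation and ketone synthesis had 9 of 36 measured members below healthy and 0 above (25%; median -0.76). Cpt1a, which admits long-chain fatty acids to mitochondria, read 1.70 and 1.93 in healthy colon and 0.03 and 0.60 (ALA), 0.99 and 1.57 (fish oil) and -0.43 and 0.72 (n-6) in colitis. Fish oil replicate 2 lay close to healthy, and the difference was -1.23 (SE 0.38, limma adjusted p = 0.501). Fabp2, an intestinal fatty acid carrier, read 3.67 and 3.76 against 0.66 to 3.20. Ppargc1a, a coactivator of mitochondrial genes, read -2.44 and -2.42 against -7.01 to -2.87, and n-6 replicate 1 stood far below the rest. Acadm, Hadha, Hadhb, Acat1 and Etfdh, enzymes and an electron carrier of the same path, also lay below. The list's median difference was -0.67 in ALA, -0.36 in fish oil and -1.11 in n-6 colitis.

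Of 30 measured mitochondrial respiratory chain genes 7 lay below healthy and 0 above (23.3%), with a median of only -0.23, and 6 had a higher mean in colitis. The list's median difference was -0.27 in ALA, -0.04 in fish oil and -0.31 in n-6 colitis. Summed, the list overlapped, at 9.77 to 9.87 in healthy colon and 9.32 to 10.02 in colitis. Atp5f1b, the catalytic subunit of ATP synthase, read 2.87 and 3.22 against 1.07 to 2.72, while Uqcrc2, Uqcrfs1 and Sdha differed by -0.56, -0.54 and -0.44. The gaps of these 3 to healthy were -0.08, -0.04 and -0.09, so they sit at the edge of the rule. Of 10 measured adipocyte markers 2, Pck1 and Pparg, lay below and 0 above (median -0.87), and 8 of the 10 had a lower mean in colitis. Their summed level was 4.89 to 6.07 in healthy and 3.19 to 6.22 in colitis colon, and their part in the lipid genes was not tested. Pck1, the enzyme of gluconeogenesis and glycerol synthesis, read 1.20 and 1.96 against -2.95 to 0.62. Pparg, the lipid-sensing receptor of colonocytes and fat cells, read 3.58 and 4.11 against -0.23 to 3.50, and only n-6 replicate 1 and ALA replicate 1 lay under 3.19. Acsbg1, an acyl-CoA synthetase, read 1.16 and 3.20 against -1.01 to 0.15. The summed colonocyte list overlapped, at 9.70 to 9.85 in healthy colon and 8.57 to 10.27 in colitis, and had 1 of 26 members below and 0 above; its part in the oxidation genes was not tested.

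That 1 member was Cftr, the chloride channel of crypt cells, at 3.48 and 3.37 in healthy colon and -0.47 and 1.77 (ALA), 1.54 and 2.08 (fish oil) and -4.39 and 0.80 (n-6) in colitis. The spread of the colitis arrays was wide, so a difference of -3.20 had an SE of 1.26 (limma adjusted p = 0.591). A further Cftr probe gave -2.35 (SE 0.30), also with all colitis arrays below. In the deposited value table the Cftr entry differed by 0.41 in the other direction. Genes of the crypt base and Wnt signalling had 4 of 12 measured members below and 0 above (33.3%, median -0.48). Another 3 of the 12 had a higher mean in colitis. The summed list overlapped, at 6.45 to 6.72 in healthy colon and 5.33 to 7.08 in colitis. Ephb3, the receptor that keeps cells at the crypt base, read 2.11 and 2.09 against -0.35 to 1.20, and its 3 diet means lay within 0.14. Ascl2, the transcription factor of intestinal stem cells, read -0.55 and -1.03 against -4.16 to -1.58. Axin2, a feedback inhibitor that Wnt induces, read -1.94 and -3.11 against -6.55 to -3.81. Rnf43, a ligase that removes Wnt receptors, read -3.66 and -4.15 against -6.62 to -4.50. With normexp background correction Rnf43 differed by 0.03 in the other direction.

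Further named genes with a wide gap below healthy were Slc6a20a, an imino acid transporter, at -2.00 and -1.72 against -5.02 to -3.32, and Klhdc8a, a kelch-domain protein, at 2.40 and 2.33 against -2.13 to 0.92. Cd320, the cellular receptor of the vitamin B12 carrier, read 1.98 and 1.75 against -0.45 to 0.50, and Scin, an actin-severing protein, -1.44 and -1.07 against -4.46 to -2.46. Dio1, which activates thyroid hormone, read -1.86 on both healthy arrays against -4.63 to -3.01. Of 21 tight junction and adhesion genes 2 lay below: Cldn2, a pore-forming claudin, at -2.22 and -1.24 against -7.39 to -2.25, and Cgn, the plaque protein cingulin, at -1.97 and -1.40 against -4.47 to -2.06. Their gaps of -0.03 and -0.09 leave both close to overlap. Ccnd1, a cyclin of cell cycle entry, was the only 1 of 29 cell cycle genes below healthy, at 1.69 and 2.15 against -1.97 to 1.39.

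Genes of the interferon response were among the members below healthy. Of 10 measured genes of interferon gamma and its chemokines 4 lay below and 0 above (40.0%, median -0.80). Of 19 interferon-stimulated genes 5 lay below and 0 above (26.3%, median -0.51), and 2 had a higher mean in colitis. Both summed lists overlapped healthy. The first read 6.62 to 6.91 in healthy colon and 5.74 to 7.15 in colitis, the second 7.96 to 8.09 and 7.24 to 8.25. Ifng, interferon gamma itself, read -3.99 and -3.82 in healthy colon and -4.90 and -4.56 (ALA), -5.53 and -5.84 (fish oil) and -5.90 and -5.39 (n-6) in colitis. These are dim signals, well above background on 2 healthy, 1 ALA, 0 fish oil and 0 n-6 arrays. With normexp background correction the difference of -1.45 became 0.04. Cxcl9, a T cell chemokine, read -0.73 and -0.01 against -2.30 to -1.42. Cxcl10 read 0.84 and 0.65 against -1.44 to 0.41, and Cxcl11, which shares their receptor, -1.31 on both healthy arrays against -4.05 to -2.50. The difference of Cxcl11 was -1.68 (SE 0.42, limma adjusted p = 0.403). Usp18, a brake on interferon signalling, read -0.46 and 0.67 against -2.15 to -1.12, and Oas1a, an antiviral RNA sensor, 0.27 and 0.90 against -2.03 to -0.48. Rsad2 and Oasl differed by -1.04 and -1.01. Cd8a, a marker of cytotoxic T cells, was the only 1 of 17 T cell markers below, at -1.33 and -1.05 against -3.01 to -1.36, and 0 lay above. The summed T cell list overlapped, at 4.39 to 4.41 in healthy colon and 4.03 to 5.23 in colitis, and its part in the interferon genes was not tested.

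Of 21 prostanoid genes 3 lay below and 0 above, although the list's median was 0.17. Ptges2, a prostaglandin E synthase, read -2.17 and -1.84 against -3.93 to -2.86, Hpgd, which inactivates prostaglandins, 4.48 and 4.67 against at most 4.30, and Slco2a1, which carries them into cells, -2.16 and -2.11 against -3.70 to -2.23. Of 49 gene lists 22 had members above and none below, 16 had members below and none above, 2 had both, and 9 had neither. Smooth muscle genes, B cell and plasma cell genes, CC chemokines, TNF signalling, collagens, enteric neurons, interstitial cells of Cajal, enteroendocrine hormones and tuft cells are those 9. The B cell list had a median difference of 1.73 but wide spread. Of its 13 measured genes 4 were kept only for their signal in colitis. Pou2af1, a B cell coactivator, read 0.46 and 0.13 in healthy colon and from -1.06 to 5.67 in colitis, lowest on both fish oil arrays.

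Members of the remaining lists were few and mostly near the edge of the rule. Sele, the endothelial selectin that captures neutrophils, was well above background on 0 healthy, 1 ALA, 0 fish oil and 2 n-6 arrays, so no fold is given; n-6 replicate 1 was highest at -1.98. Tpsab1, a mast cell tryptase, read -6.05 and -5.41 in healthy colon against -5.39 to -2.81, and Alox5ap, which activates leukotriene synthesis, -2.83 and -3.09 against -2.77 to -1.88. Atf6, a sensor of misfolded protein, read -1.36 and -1.15 against -0.80 to 0.28, but a further Atf6 probe differed by 0.17 and overlapped. Below healthy, Gli1, a Hedgehog target of crypt stroma, read -3.65 and -4.04 against -6.63 to -4.53. It was well above background on 2 healthy, 1 ALA, 0 fish oil and 0 n-6 arrays, so its colitis levels are mostly background. Dpt, a dermal matrix protein also used as a fibroblast marker, lay above healthy at -0.43 and -0.44 against -0.26 to 0.74. Emcn, an endothelial surface protein, read -2.59 and -1.93 against -3.86 to -2.81. Egf and Tgfa, growth factors of the epithelium, differed by -1.25 and -0.58, and a further Tgfa probe, which overlapped healthy, by -0.02. Nr1d2, a repressor of the clock, was 1 of 12 clock genes below healthy, at -3.62 and -3.61 against -5.92 to -3.70. Outside the lists, Wfdc18, a secreted protein of the whey acidic protein family, read -4.58 and -4.25 against -2.30 to 0.85, and Htra4, a secreted serine protease, -5.05 and -5.25 against -3.38 to -1.42. Both had healthy arrays that lay close together and far from colitis.

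**Figure D4:**
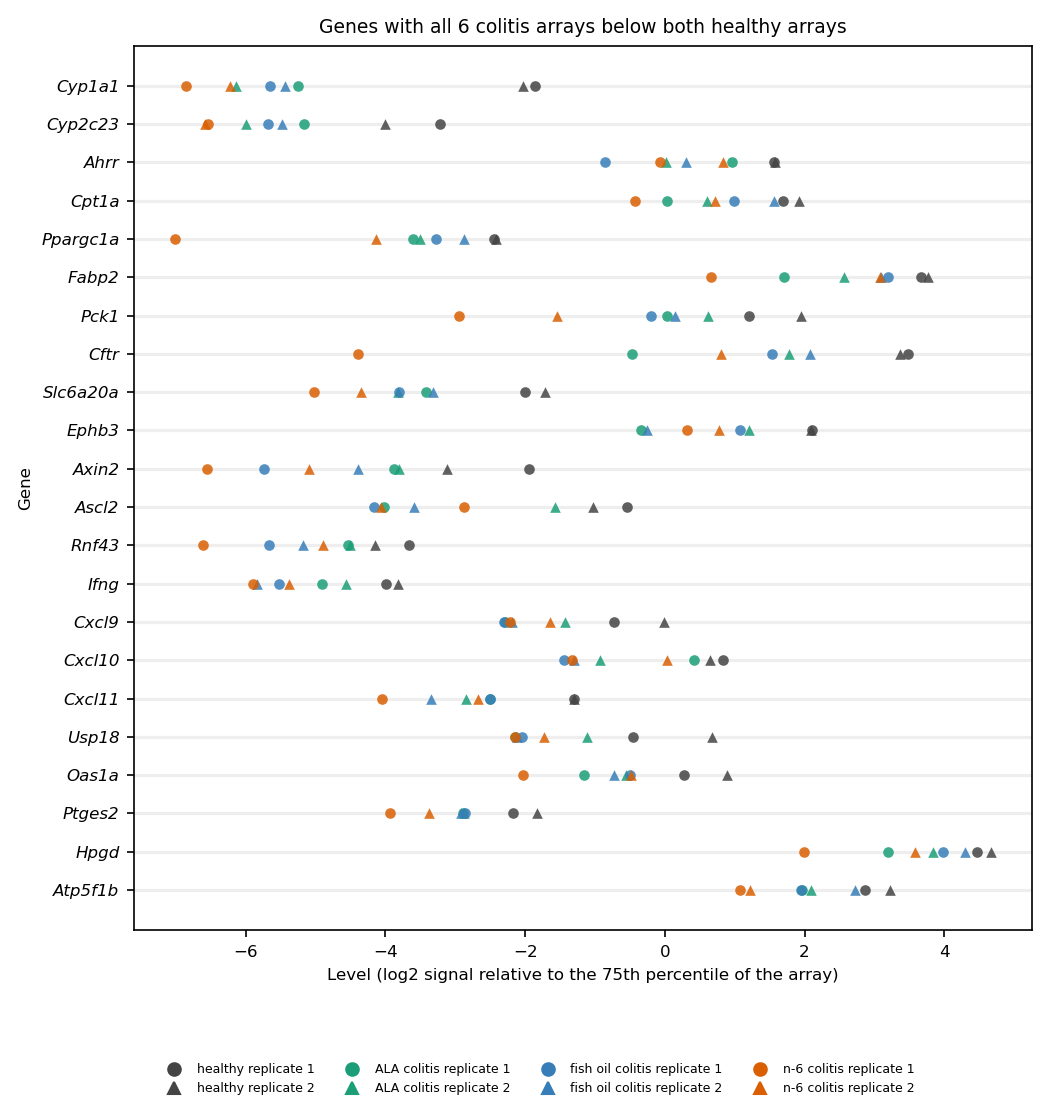
Levels on each array (x axis, log2 signal relative to the 75th percentile of the array) of 22 members below healthy, 1 gene a line. Colours give the group and shapes the replicate; the healthy arrays (grey) lie to the right of every colitis array, for Cyp1a1 at -1.86 and -2.03 against -6.86 to -5.25.

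**Figure D5:**
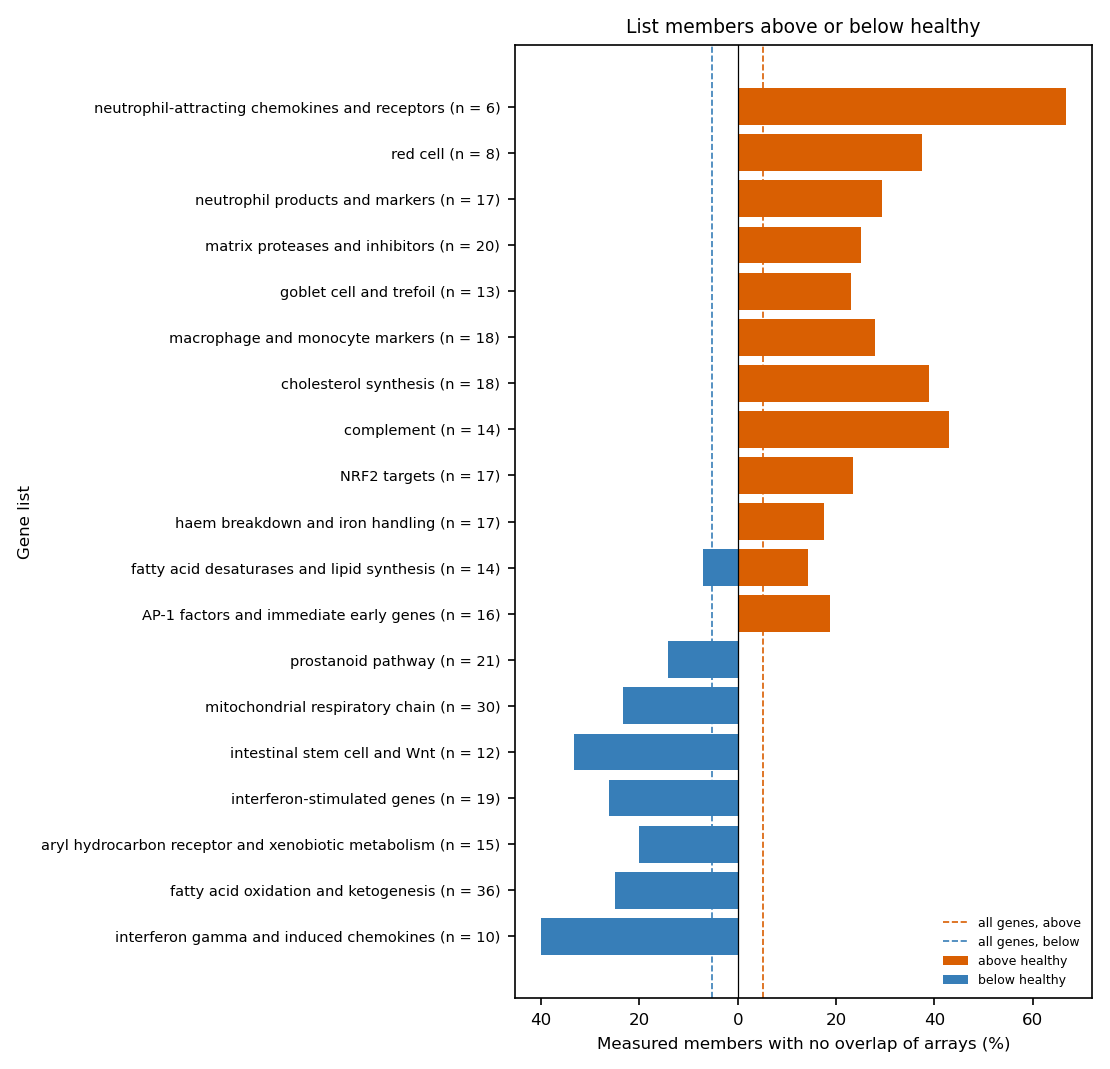
Share of the measured members of a list (x axis, percent) with all colitis arrays above healthy (orange, right) or below (blue, left), for the lists with 3 or more such members, ordered by median difference. Dashed lines mark the shares over all genes, 5.09% above and 5.26% below. The list of neutrophil-attracting chemokines and receptors reaches 66.7% above and that of interferon gamma and induced chemokines 40.0% below.

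The diets were then compared within the members, first by their distance from the healthy arrays, which the rule also used. Members lay farthest from healthy most often in n-6 colitis, for 59.7% of members above and 74.0% of members below, against 39.7% of all higher and 52.5% of all lower genes. Fish oil was the group nearest to healthy for 60.6% of members above and 60.5% of members below, against 51.3% and 51.8%. The single array nearest to healthy was fish oil replicate 2 for 41.8% of members above and 38.5% of members below. The median difference of members above was 0.65 in ALA, 0.54 in fish oil and 0.85 in n-6 colitis, and that of members below -0.66, -0.53 and -1.03. A limma F-test between the 3 diets, which contrasts colitis arrays only, gave an adjusted p under 0.05 for 5 of 18171 genes (0.0275%) and an unadjusted p under 0.05 for 9.33% of genes, 11.7% of members above and 11.1% of members below. The rule acts on the spread of the colitis arrays both between and within diets, so these shares are a description.

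The 3 members that differed between diets were the globins Hba-a1, Hbb-b1 and Hbe2, subunits of red cell haemoglobin. Hba-a1 read 1.95 and 1.81 in healthy colon, 2.96 and 2.87 in ALA, 2.60 and 2.43 in fish oil and 7.06 and 6.50 in n-6 colitis. All colitis arrays lay above healthy, yet the n-6 arrays lay far above the other colitis arrays (limma F-test adjusted p = 0.0214). A further Hba-a1 probe (difference 2.30) overlapped healthy. Hbb-b1 read 0.62 and 0.44 in healthy colon, 0.85 to 1.60 in ALA and fish oil colitis and 6.25 and 5.40 in n-6 colitis (F-test adjusted p = 0.0214), and Hbe2 -1.24 and -1.36, -1.08 to -0.17, and 4.54 and 3.49 (0.0309). Near-identical globins can bind each other's probes. No gene passed the F-test in the deposited value table, without the filter, with the replicate number as a block or with any array left out (0 genes each). At the other end, Tex15, Cd320, Dlk1, Dio1 and Ephb3 had the most even diets among the widest gaps, with diet means within 0.21, 0.49, 0.51, 0.45 and 0.14 of each other.

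The AP-1 letters TGANTCA, searched on both strands of the 250 bases before the start, occur in 41 of 506 members above (8.10%) and in 19 of 658 members below (2.89%), against 514 of 10795 tested genes (4.76%) and 6.36% of all 27457 promoters. In all 5 motifs were searched, and the difference in share was not tested. The stretches of 3 members above are shown with the match in capitals (GRCr8; Anxa2 and Slc16a3 on the plus strand, Osmr on the minus strand).
Anxa2 (chr8:78986104-78986160): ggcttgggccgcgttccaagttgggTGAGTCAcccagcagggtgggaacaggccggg
Slc16a3 (chr10:106712078-106712127): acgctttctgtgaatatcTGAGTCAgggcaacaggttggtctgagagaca
Osmr (chr2:57688563-57688619): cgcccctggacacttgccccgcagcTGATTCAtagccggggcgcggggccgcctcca
Anxa2, a membrane protein that helps to activate plasminogen, was bright in every group, at 5.61 and 5.63 in healthy colon against 6.16 to 7.19 in colitis. Slc16a3 and Osmr are described above. No listed AP-1 subunit other than Fosl1 lay above healthy on every colitis array.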

How the data were processed

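Scanner files of 8 Agilent arrays hold spot intensity values made with Feature Extraction 11.5.1.1, background-subtracted and not scaled between arrays, per the file headers. The deposited value table holds log2 values relative to about the 75th percentile of each array (column medians -3.18 to -2.89); the sources used here do not state how it joins probes. Control and outlier spots were left out, the 75th percentile of each array was subtracted from its log2 processed signals, and repeated spots were averaged. Probes were kept if both arrays of some group called them well above background (20801 of 30367), and a gene was represented by its brightest probe. Of the probes, 8618 matched no entry of the RefSeq GRCr8 table used for names; positions are those of rn4.

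The test was limma 3.58.1 in R 4.3.3 on 4 group means, contrasting the mean of the 3 colitis groups with healthy, with 4 residual degrees of freedom and Benjamini-Hochberg adjustment at 0.05. It was checked on simulated data. The members, the 49 gene lists and the tests were chosen with earlier results of these data known. The text names up to 15 genes a direction with the widest gap, up to 4 non-overlapping members of a list (2 by level where there are none), genes that pass the test between diets, and the genes at the edge of the rule. Alternatives were other scalings, filters, fits, slide blocks and left-out arrays. Deviations of same-numbered arrays correlated at -0.168 to 0.468, over 0.1 for the 3 pairs with healthy and under it for the other 3, so numbers were not taken to pair arrays. Some results are not reported here.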

Additional observations from a re-analysis of the deposited data

Results flagged for a closer look

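Of the genes tested, 5 differed between the 3 colitis diets by limma's F-test. The globins Hbb, Hba-a1 and Hbb-b1 had an adjusted p of 0.0214 each and Hbe2 one of 0.0309, with n-6 colitis far above the other diets. Hbb read 1.06 and 0.85 in healthy colon, 0.93 to 1.95 in ALA and fish oil colitis and 5.78 and 5.42 in n-6 colitis, so it overlapped healthy on 1 fish oil array. Lpal2 (adjusted p = 0.0214) ran the other way: -2.87 and -3.28 in healthy colon, -1.67 and -1.64 in ALA, -1.61 and -1.37 in fish oil and -5.87 and -6.51 in n-6 colitis. ALA and fish oil arrays lay above healthy and n-6 arrays below it, so averaging the 3 diets gave a difference of -0.04. None of the 5 kept its call when an array was left out, since the count of such genes was then 0.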

How the results depend on the processing

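For 119 named genes, the difference between colitis and healthy kept its direction and its side of the threshold under 3045 of 3062 combinations of gene and alternative. All 119 were members by the rule, so leaving out arrays or changing only the fit could not turn their direction. None passed the main test, so keeping the side of the threshold means staying uncalled. The count is therefore largely set by the rule. The difference crossed to an adjusted p under 0.05 in 12 and turned direction in 5. The 5 were Cftr in the deposited value table (0.41) and, with normexp background correction, Ifng (0.0363), Rnf43 (0.0341), Elovl5 (0.107) and Nr1d2 (0.00924). Of 1274 list medians under the alternatives, 51 moved and 67 had the opposite sign.

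Genes that passed the limma test numbered 0, but 1 with median centring, 14 with the slide column pair as a block (2436 at an unadjusted p under 0.05) and 7 within the slide columns that hold n-6 and healthy arrays. The slide row block gave 0 (780 at an unadjusted p under 0.05). Members of the gene lists that passed numbered 1, 8 and 7 under the first 3 of these. Leaving out an array gave 0 to 1, the 1 without healthy replicate 2, and 0 among list members. Healthy arrays share columns only with n-6 arrays and a row only with ALA arrays. The column settings therefore contrast n-6 alone with healthy, and the row block ALA alone.

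Arrays all above healthy were found for 4095 genes and all below for 3285 with ALA colitis alone, 4318 and 3942 with n-6 colitis alone, 1587 and 1581 without the ALA group, and 2266 and 1989 without the fish oil group, since fewer arrays must clear the healthy ones. Leaving out an array gave 987 to 3382 above and 1021 to 2443 below. Median centring left 595 below and normexp 582 below. Without the probes that hold the shared run, an alternative chosen after seeing the data, 908 lay above.

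Genes that differed between diets numbered 5, and 0 in the deposited value table, without the filter, without the n-6 group, without the fish oil group and with any array left out (0 to 0); the cause was not tested. The replicate number as a block gave 0 genes for diets and 0 for colitis against healthy (1680 at an unadjusted p under 0.05), against 1457 without it; same-numbered arrays correlated over 0.1 in 3 of 6 pairs, so a pairing is not shown. Background limits dim genes: 41 members above were not well above background on either healthy array and 10 members below on any colitis array.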
